A study of Mus musculus with 7 samples.

Results

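Retinoic acid is the active form of vitamin A in most tissues, and 9 genes of its synthesis and response were followed here in fibroblasts of mouse mammary tumors and in stromal cells of the normal mammary fat pad. They are Rbp4, Aldh1a1, Aldh1a2, Aldh1a3, Crabp1, Crabp2, Rarb, Rarg and Cyp26b1. Each was found by its exact symbol, so that 9 of the 24421 gene symbols in the count table are described, and all 9 were among the 10535 symbols with enough counts to be tested. The genes were chosen with the difference between these same groups known, so their levels, folds and standard errors are given as a description and no test is reported for them. Of all tested genes, 28.4% differed between the groups at an adjusted p under 0.05, 14.3% being higher and 14.2% lower in the tumor libraries; 6 of the 9 genes met that rule, 3 in each direction, a count from which nothing is read because the contrast chose the genes. For 6 of the 9 every pCAF library lay on one side of every NMF library, again 3 in each direction, beside 40.4% of all tested genes (19.0% higher and 21.4% lower), and nothing is read from that count either.

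The tumor group, named pCAF in the labels, held 3 libraries from BALB/c females given 100000 4T1-luc cells, a mouse mammary carcinoma line that carries luciferase, in a mammary fat pad. Tumors were taken at a size of 1 cm. The cells were sorted as Ter119-, CD45- and EpCAM- and positive for podoplanin (PDPN). Fibroblasts and lymphatic endothelial cells, among other cell types, carry PDPN on their surface. The normal group, NMF, held 4 libraries from the fat pads of untreated BALB/c mice, sorted with the same 3 negative markers but without PDPN. The labels give the mice as 8 weeks old for pCAF and 12 weeks old for NMF, although the design text calls them age matched, and the enzyme mixtures that freed the cells differed between tumor and fat pad. Age, digestion and the PDPN gate therefore go with the groups and cannot be told apart from the tumor. The selection field of pCAF replicate 3 reads PDPN-, against its title and source name, which place it in the PDPN+ group. This library held 692 counts of Pdpn, beside 1779 and 498 in pCAF replicates 1 and 2. The NMF libraries held 128, 109, 166 and 236. These are transcripts, whereas the sort was on protein. Replicate 3 was kept in pCAF. Titles call the libraries biological replicates without naming an animal for each, so p-values below measure the spread between these libraries.

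Vitamin A reaches cells as retinol bound to retinol-binding protein 4 and enters through the membrane receptor STRA6. Inside the cell retinol is oxidised reversibly to retinaldehyde by retinol dehydrogenases, and then irreversibly to retinoic acid by the retinaldehyde dehydrogenases of the ALDH1A family. CRABP proteins carry retinoic acid in the cytoplasm, RAR and RXR receptors bind DNA as pairs and turn it into changes of transcription, and CYP26 enzymes hydroxylate and so clear it. Stromal fibroblasts, adipocytes and mesothelial cells, the lining cells of body cavities, are known to store vitamin A or to make retinoic acid in many organs.

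Libraries held 1885039 to 4990070 counts. One library of each group stood apart. Across genes, pCAF replicate 1 had Pearson's r of 0.83 and 0.83 with replicates 2 and 3, which had 0.974 with each other, and NMF replicate 4 had 0.892 to 0.898 with the other NMF libraries, which had 0.961 to 0.965 among themselves; between the groups r was 0.621 to 0.735. The fibroblast markers were high in both groups. Their summed levels were 71193 to 82258 CPM (counts scaled to the size of the library) in pCAF and 22965 to 42530 CPM in NMF. By the rule above, 5 of the 10 were higher in pCAF, namely Col1a1, Col1a2, Col3a1, Lum and Pdpn. The Pdpn difference goes with the gate, which was used for pCAF alone, so it says nothing of fibroblast content. The other markers did not meet the rule. Thy1 and Fap lay above every NMF library in all pCAF libraries, Dcn lay below, and Pdgfra and Pdgfrb overlapped. NMF also held adipocyte, blood endothelial and Schwann cell transcripts. The 8 adipocyte markers summed to 1809 to 15581 CPM in NMF and to 7.76 to 68.2 CPM in pCAF, with Plin1, Cidec and Lep at 0 in every pCAF library. Most of the NMF sum was Fabp4 (1577 to 15228 CPM), which endothelial cells express as well. The 8 blood endothelial markers summed to 1237 to 2062 CPM in NMF and 36.0 to 59.9 CPM in pCAF, and the 5 Schwann markers to 139.7 to 670 CPM and 0 to 3.38 CPM. Marker sums of the following cells overlapped between the groups. Epithelial and tumor cell markers summed to 187 to 577 CPM in NMF and 107 to 262 CPM in pCAF. Leukocyte markers summed to 19.0 to 160 CPM in NMF and 29.9 to 56.9 CPM in pCAF. For lymphatic endothelium the sums were 32.4 to 78.8 CPM and 23.3 to 46.8 CPM. For pericytes and vascular smooth muscle they were 361 to 564 CPM and 259 to 435 CPM. The part of all these cells in the results below was not tested. In bulk samples such as these, fewer cells of a type and less RNA per cell cannot be told apart.

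The supply side of the pathway differed between the groups in both directions. Rbp4, the gene of the serum retinol carrier, which adipocytes also make (chromosome 19, 38116629 to 38125281, minus strand, mm10), had 33.3, 61.4 and 60.4 CPM in pCAF replicates 1, 2 and 3 and 107, 109.8, 122.5 and 102 CPM in NMF replicates 1, 2, 3 and 4. Every pCAF library lay below every NMF library. The fitted level was 2.14-fold lower in pCAF (log2 fold change -1.09, SE 0.28). From the lowest to the highest NMF library Rbp4 differed by 1.20-fold. The adipocyte markers Lipe, Cidec, Adipoq, Pparg and Retn differed there by 1.83-fold, 1.89-fold, 2.38-fold, 2.39-fold and 2.76-fold, and Fabp4 by 9.66-fold. Plin1, at 0 in NMF replicate 3, and Lep, at 0 in NMF replicate 4, gave no such ratio. The part of adipocytes in the Rbp4 level was not tested.

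Stra6, the membrane receptor for the retinol carrier, went the other way. Its level was 100.3 ± 34.4 CPM (SD, n = 3) in pCAF and 10.7 ± 5.86 CPM (SD, n = 4) in NMF, 9.57-fold higher in pCAF (edgeR quasi-likelihood test, adjusted p = 0.00178). All 3 pCAF libraries lay above all 4 NMF libraries. Rbp7, an intracellular retinol carrier that is known from adipocytes and capillary endothelium, had 1 count in the pCAF libraries together and 3866 in the NMF libraries. The NMF to pCAF ratio of Rbp7, 1582, has an exact 95% counting interval of 284 to 62506 (adjusted p = 7.3e-05), and without pCAF replicate 3, which held the count, it was at least 351. Stra6 thus passed the test as higher in pCAF and Rbp7 as lower, beside the lower values of Rbp4.

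The hydrolases and the scavenger receptor that release or take up retinyl esters and carotenoids were all lower in pCAF among those that passed. Lipe, the hormone-sensitive lipase, was 13.7-fold lower (7.25 ± 1.55 CPM in pCAF and 99.9 ± 31.3 CPM in NMF, adjusted p = 1.04e-04), and Scarb1, the scavenger receptor of high-density lipoprotein, was 19.6-fold lower (adjusted p = 5.99e-04). Ces1d, a carboxylesterase of adipose tissue, was at 0 in every pCAF library and at 44.4 to 68.4 CPM in NMF, at least 103-fold lower when 3 counts are assumed for the pCAF libraries together (adjusted p = 6.1e-05), and at least 68.7-fold to 69.3-fold lower when any 1 pCAF library was left out. Lipe is also one of the 8 adipocyte markers. Lrp1, a large endocytic receptor, had 1436 ± 277 CPM in pCAF and 931 ± 253 CPM in NMF and did not pass (adjusted p = 0.129, but 0.0336 without NMF replicate 4; 0.00327 to 0.334 over all alternatives). Lpl, lipoprotein lipase, had 173 ± 30.2 CPM and 267 ± 25.3 CPM and did not pass either (adjusted p = 0.0758), although it did without pCAF replicate 1 (0.0254), with library totals as scaling (0.0187) and with DESeq2 (0.0313), within a range of 0.00134 to 0.263. In all, 9 of the 17 other genes listed for uptake, storage and binding were tested, 2 (22.2%) being higher and 4 (44.4%) lower, beside 14.3% and 14.2% of all tested genes, and their median log2 fold change was -3.77, where the median of all tested genes was -0.02.

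**Figure D1:**
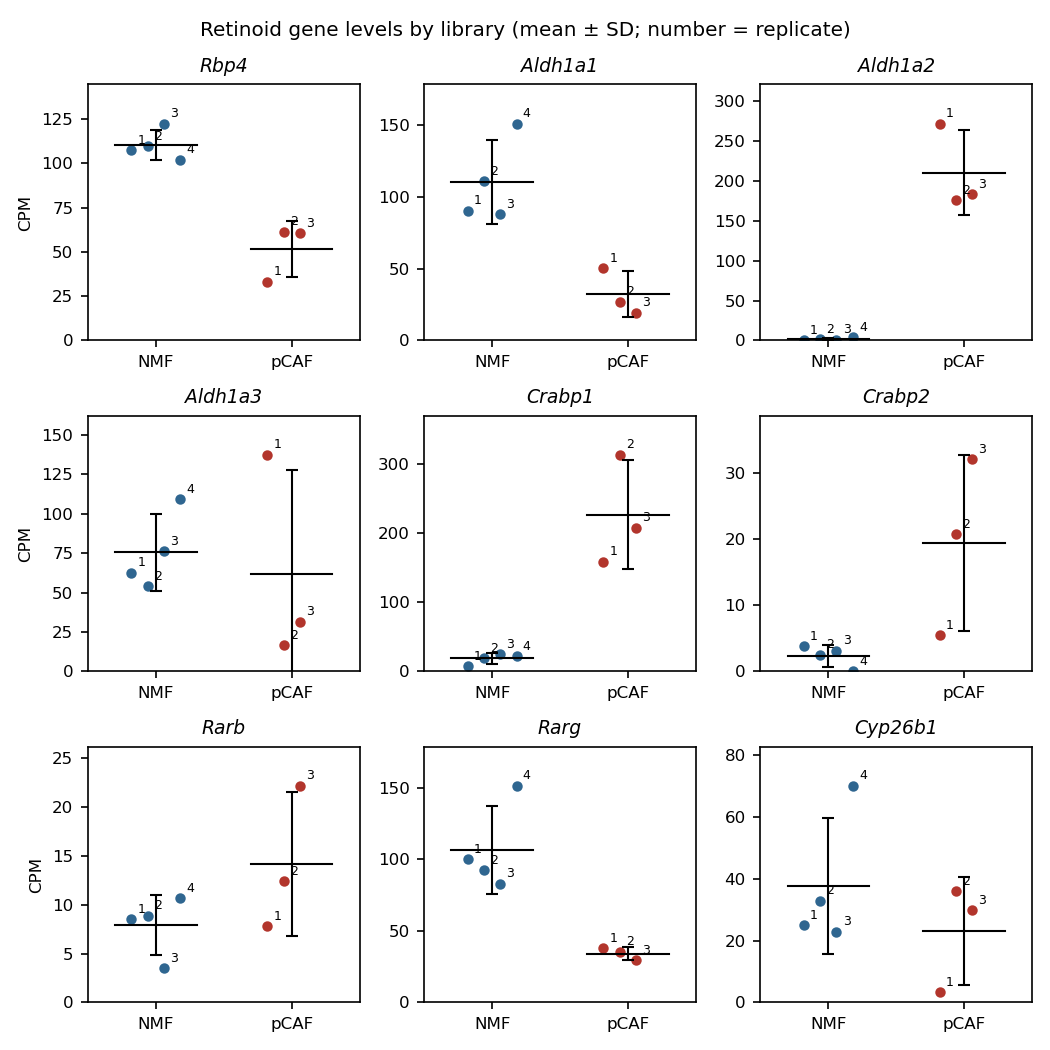
Level of each of the 9 genes in every library, in CPM on a linear axis that starts at 0; points are libraries with their replicate number, horizontal lines group means and bars ± SD (the lower bar of Aldh1a3 in pCAF is cut at 0). Aldh1a2, Crabp1 and Crabp2 lie higher in all 3 pCAF libraries than in all 4 NMF libraries, Aldh1a1, Rarg and Rbp4 lie lower, and Aldh1a3, Rarb and Cyp26b1 overlap.

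At the step between retinol and retinaldehyde, transcripts of single enzymes differed between the groups. Rdh10, the retinol dehydrogenase that is needed for embryonic retinoic acid synthesis, had 17.7, 52.9 and 59.9 CPM in the pCAF libraries and 3.86, 7.18, 9.86 and 7.47 CPM in the NMF libraries, without overlap and 6.08-fold higher in pCAF (adjusted p = 0.00293). Akr1b8, an aldo-keto reductase listed among the enzymes that turn retinaldehyde back to retinol, was 3.23-fold higher (284 ± 23.4 CPM in pCAF, 88.0 ± 19.1 CPM in NMF, adjusted p = 9.48e-04). Adh1, the cytosolic class I alcohol dehydrogenase, was 6.80-fold lower in pCAF, at 82.7 ± 74.8 CPM against 563 ± 208 CPM (adjusted p = 0.00625). Its pCAF values were 169 CPM in replicate 1 and 47.3 and 32.1 CPM in the others, and without replicate 1 the difference was 14.2-fold. Dhrs7 was 2.16-fold lower (adjusted p = 0.00945). Dhrs3, the retinaldehyde reductase that limits retinoic acid synthesis, had 179 ± 40.7 CPM and 192 ± 44.9 CPM and did not pass (adjusted p = 0.818), nor did the ubiquitous Adh5 (adjusted p = 0.541). Rdh5, which shares its 3′ end with Bloc1s1 on the same strand and so has uncertain counts, was 2.59-fold lower (adjusted p = 0.0375), a call lost when any single library other than pCAF replicate 1 was left out (adjusted p 0.0740 to 0.132, within 0.00147 to 0.132 over all alternatives). Of 21 dehydrogenases and reductases listed, 12 were tested, 2 (16.7%) were higher and 3 (25.0%) lower, beside 14.3% and 14.2% of all tested genes, with a median log2 fold change of -0.31.

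The 3 retinaldehyde dehydrogenase genes, which encode the enzymes that make retinoic acid, did not move together. Aldh1a2 (chromosome 9, 71215789 to 71296243, plus strand) had 272, 176 and 183 CPM in pCAF replicates 1, 2 and 3. In NMF replicates 1, 2, 3 and 4 it had 0.773, 1.69, 1.06 and 3.74 CPM, which were 2, 4, 3 and 20 counts. The lowest pCAF library thus lay far above the highest NMF library, and no other of the 9 genes had so wide a gap. The fitted difference was 102-fold (log2 fold change 6.68, SE 0.47; 210.3 ± 53.3 CPM in pCAF, n = 3, and 1.81 ± 1.34 CPM in NMF, n = 4). NMF replicate 4 held 20 of the 29 NMF counts, and without it the difference was 176-fold.

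Aldh1a1 (chromosome 19, 20492715 to 20643465, plus strand), the form that is known from adipose tissue and liver, ran the opposite way. It had 50.5, 27.0 and 19.4 CPM in the pCAF libraries and 90.4, 111, 88.0 and 151 CPM in the NMF libraries. All pCAF libraries lay below all NMF libraries, pCAF replicate 1 being the highest of its group and NMF replicate 4 of the other. The fitted level was 3.41-fold lower in pCAF (log2 fold change -1.77, SE 0.38; 32.3 ± 16.2 CPM and 110.1 ± 29.2 CPM).

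Aldh1a3 (chromosome 7, 66390890 to 66427517, minus strand) had 138, 16.9 and 31.6 CPM in the pCAF libraries and 62.6, 54.0, 76.4 and 109 CPM in the NMF libraries. The groups overlapped because pCAF replicate 1 was above every NMF library while the other pCAF libraries were below them all. The fitted log2 fold change was -0.29 (SE 0.60) with all libraries, -1.65 or 3.14-fold lower without pCAF replicate 1, and 0.16 and 0.03 without pCAF replicates 2 and 3. Its direction between the groups thus rested on single libraries. In pCAF replicate 1 the 8 markers of resting adventitial fibroblasts summed to 14075 CPM, against 4421 and 3186 CPM in the other pCAF libraries and 14912 to 19920 CPM in NMF. The single markers were divided in pCAF replicate 1. Dpp4 (7.76 CPM), Ackr3 (276 CPM), Clec3b (1265 CPM) and Dpt (2255 CPM) lay below every NMF library. Pi16, Cd34 and Ly6a lay within the NMF range and Sema3c just above it. The part of such fibroblasts in the Aldh1a3 level was not tested. The 3′ end of one annotated Aldh1a3 transcript is nearly identical to those of 19 other genes, so part of its counts is uncertain in a library that reads 3′ ends.

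As shares of the summed counts of the 3 genes in each library, which need no scaling between libraries, the make-up of the family was turned over. Aldh1a2 took 59.1% (Wilson 95% interval 55.7 to 62.4%) of 829 counts in pCAF replicate 1, 80% (75.7 to 83.7%) of 390 in replicate 2 and 78.3% (74.1 to 81.9%) of 423 in replicate 3. In NMF it took 0.503% (0.138 to 1.81%) of 398, 1.01% (0.394 to 2.57%) of 395, 0.638% (0.217 to 1.86%) of 470 and 1.41% (0.917 to 2.17%) of 1415. The lowest pCAF share was far above the highest NMF share, and none of these intervals met across the groups. Neither is a test, because Aldh1a2 was chosen with the group difference known. Aldh1a1 held 10.5 ± 2.06% in pCAF and 58.9 ± 5.62% in NMF, and Aldh1a3 held 17.0 ± 11.5% and 40.2 ± 5.72%. The summed level of the family was 305 ± 135 CPM in pCAF and 188 ± 51.5 CPM in NMF, with 220 CPM in the lowest pCAF library and 264 CPM in the highest NMF library, so the totals overlapped while the shares did not. Reads were assigned by 3′ ends, and the partly uncertain Aldh1a3 counts are in every total. The intervals cover counting error only and not the spread between libraries.

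**Figure D2:**
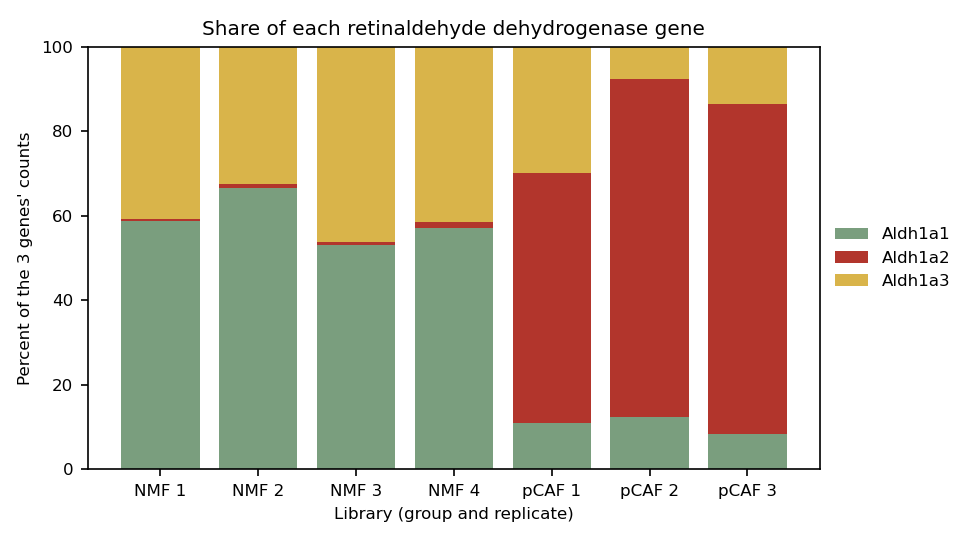
Percent of the summed counts of Aldh1a1, Aldh1a2 and Aldh1a3 that each gene takes in every library (stacked bars to 100%). Aldh1a2 makes up 59.1 to 80% in the pCAF libraries and 0.503 to 1.41% in the NMF libraries.

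The promoters of Aldh1a1 and Aldh1a2 are shown because these genes moved in opposite directions and differ in base composition. Each window runs from 250 bases before to 50 bases after a RefSeq start on GRCm38.p6 (the assembly also called mm10), 5′ to 3′ on the gene's strand, with CpG dinucleotides, the sites of DNA methylation in mammals, in capitals. The Aldh1a2 window is chr9:71215539-71215838, plus strand, and the Aldh1a1 window is chr19:20601718-20602017, plus strand.
Aldh1a2: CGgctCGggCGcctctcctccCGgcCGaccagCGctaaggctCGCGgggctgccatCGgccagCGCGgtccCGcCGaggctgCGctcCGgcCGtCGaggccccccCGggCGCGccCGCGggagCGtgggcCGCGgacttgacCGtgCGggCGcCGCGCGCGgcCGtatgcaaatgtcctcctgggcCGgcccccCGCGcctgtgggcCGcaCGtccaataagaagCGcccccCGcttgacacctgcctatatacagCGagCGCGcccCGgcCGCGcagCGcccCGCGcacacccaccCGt
Aldh1a1: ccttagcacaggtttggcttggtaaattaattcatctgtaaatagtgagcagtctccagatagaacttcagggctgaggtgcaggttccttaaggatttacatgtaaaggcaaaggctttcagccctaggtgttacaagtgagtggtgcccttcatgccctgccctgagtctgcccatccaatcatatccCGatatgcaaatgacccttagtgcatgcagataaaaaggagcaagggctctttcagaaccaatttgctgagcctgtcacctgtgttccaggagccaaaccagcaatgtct
The Aldh1a2 window holds 50 CpG and 99.1% of the 32851 windows in the table hold fewer, whereas the Aldh1a1 window holds 1. The window at the other RefSeq start of Aldh1a1 holds 3, and the median of all windows is 7. The other genes without overlap between the groups did not follow this pair. Rbp4, lower in pCAF, has windows with 5 and 40 CpG, and Rarg, also lower, has windows with 12 and 10. Crabp1, higher in pCAF, has 17, and Crabp2 had no window. No link between CpG number and direction is read from these windows. These counts describe the reference sequence, and no methylation was measured in the files used here.

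Aldh1a2 is known from mesothelial cells as well as from fibroblasts, and 4 of 8 listed mesothelial markers were higher in pCAF, the 4 that were tested. Summed over the 8, their level was 217 to 316 CPM in pCAF and 4.64 to 9.90 CPM in NMF. Of the 4 with too few counts to test, Upk3b (4, 13 and 22 counts in pCAF and 0, 0, 2 and 0 in NMF) and Bnc1 (4, 19 and 19, and 0, 3, 0 and 11) did not overlap in CPM. Gpm6a (0, 0 and 5, and 0, 3, 3 and 2) and Nkain4 (0, 13 and 20, and 10, 9, 6 and 14) overlapped. Upk1b, a uroplakin, had 155, 73 and 101 counts in the pCAF libraries, Lrrn4 had 46, 39 and 48, and both were at 0 in every NMF library. Msln, mesothelin, had 54, 69 and 116 counts in pCAF and 0, 0, 2 and 0 in NMF, and Wt1, a transcription factor of mesothelium, had 142, 160 and 240 in pCAF and 2, 8, 2 and 26 in NMF. NMF replicate 4 had the highest level of both Wt1 (4.86 CPM) and Aldh1a2 (3.74 CPM) in its group. In pCAF the order differed between the genes: Aldh1a2 and Upk1b were highest in replicate 1 (272 and 86.0 CPM), where Wt1 (78.7 CPM) and Msln (29.9 CPM) were lowest. Over the 7 libraries, the gene whose centred log2 CPM profile lay nearest to that of Aldh1a2 among 10534 others was Upk1b, at a root mean square difference of 0.47, followed by Col8a1, a collagen chain, at 0.56; the median gene was at 3.32. This distance includes the group difference with which Aldh1a2 was chosen, and with 0 counts the NMF values of Upk1b rest on the prior count of 2. Nothing about cell type is read from this nearness. Only pCAF was sorted on PDPN, so the gate goes with these marker differences and cannot be told apart from the tumor. The part of mesothelial cells in the Aldh1a2 level was not tested.

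**Figure D3:**
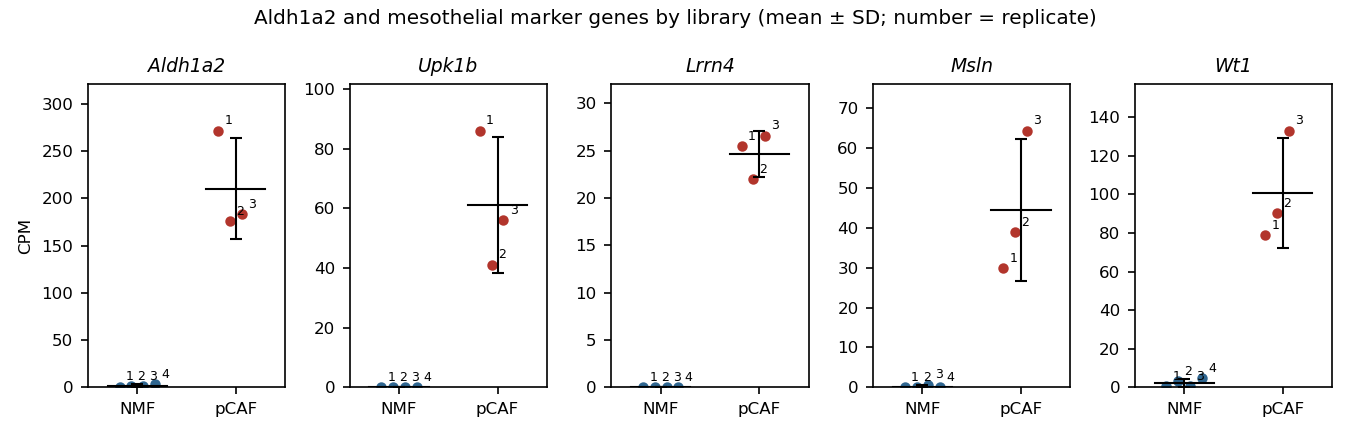
Aldh1a2 and 4 mesothelial marker genes by library, in CPM on linear axes that start at 0; points are libraries with their replicate number, lines are means and bars ± SD. All 5 genes are high in the 3 pCAF libraries and at or near 0 in the 4 NMF libraries, Upk1b and Lrrn4 being at 0 in each of them.

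The CRABP carriers of retinoic acid were both higher in every pCAF library than in any NMF library. Crabp1 (chromosome 9, 54764748 to 54773110, plus strand), whose product binds retinoic acid in the cytoplasm and can present it for breakdown, had 159, 314 and 208 CPM in pCAF replicates 1, 2 and 3 and 8.11, 19.4, 25.3 and 22.0 CPM in NMF replicates 1 to 4. The groups did not overlap, and the fitted difference was 12.0-fold (log2 fold change 3.59, SE 0.40; 227 ± 79.3 CPM and 18.7 ± 7.48 CPM). Crabp2 (chromosome 3, 87948666 to 87953376, plus strand), whose product delivers retinoic acid to the RAR receptors in the nucleus, had 5.55, 20.8 and 32.1 CPM in pCAF and 3.86, 2.53, 3.17 and 0 CPM in NMF. The 0 in NMF replicate 4 allows up to 0.560 CPM, the value of 3 counts there. Its groups did not overlap either, but pCAF replicate 1 lay close to the NMF libraries, and the spread in pCAF was wide (19.5 ± 13.4 CPM, against 2.39 ± 1.68 CPM in NMF; 8.52-fold, log2 fold change 3.09, SE 0.92). With the replicate number as a block the Crabp2 difference was 5.11-fold. The third carrier, Fabp5, which is known to bring retinoic acid to PPARD, had 36.3 ± 22.1 CPM in pCAF and 88.0 ± 34.2 CPM in NMF. Fabp5 did not pass (adjusted p = 0.0795), although it did without pCAF replicate 2 (0.0474), without NMF replicate 4 (0.0467) and with DESeq2 (0.0343), within a range of 7.92e-04 to 0.186.

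Among the nuclear receptor genes, Rarg and Rxra were lower in pCAF. Rarg (chromosome 15, 102234938 to 102257517, minus strand), the receptor known for its role in skin and skeletal tissue, had 37.7, 35.5 and 29.4 CPM in the pCAF libraries and 100.04, 92.5, 83.1 and 152 CPM in the NMF libraries. The groups did not overlap, and the pCAF values lay close together (34.2 ± 4.32 CPM, against 107 ± 30.7 CPM; 3.13-fold lower, log2 fold change -1.64, SE 0.30). Rxra, the common partner of the RAR receptors, was 2.55-fold lower in pCAF, with 39.6 ± 10.6 CPM against 100.9 ± 11.3 CPM (adjusted p = 0.00490). Rara, with 28.8 ± 12.1 CPM and 42.5 ± 14.3 CPM, and Rxrb, with 45.3 ± 1.33 CPM and 56.4 ± 14.3 CPM, did not pass (adjusted p = 0.341 and 0.449).

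Rarb (chromosome 14, 16430839 to 16819156, minus strand), the receptor gene that retinoic acid itself induces in many cells, had 7.76, 12.4 and 22.2 CPM in pCAF and 8.498, 8.87, 3.52 and 10.6 CPM in NMF. The groups overlapped, since pCAF replicate 1 lay within the NMF range and the other pCAF libraries above it (14.1 ± 7.36 CPM and 7.88 ± 3.06 CPM; log2 fold change 0.83, SE 0.52). The 3′ end of Rarb overlaps Top2b on the other strand. Whether counting used strand is not given in the sources used here, so reads of these genes cannot be told apart.

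Among the CYP26 genes, whose products clear retinoic acid, Cyp26a1 passed as higher in pCAF and Cyp26b1 overlapped between the groups. Cyp26b1 (chromosome 6, 84571414 to 84593908, minus strand), the hydroxylase of many mesenchymal tissues, had 3.33, 36.1 and 29.9 CPM in the pCAF libraries and 25.1, 32.9, 22.9 and 70.2 CPM in the NMF libraries. The groups overlapped, and the extremes were the 2 libraries that stand apart, pCAF replicate 1 at the bottom and NMF replicate 4 at the top. The fitted log2 fold change was -0.72 (SE 0.66; 23.1 ± 17.4 CPM and 37.8 ± 22.1 CPM) and became 0.29 without both. Cyp26a1, the hydroxylase gene that is known to respond most readily to retinoic acid, had 31, 31 and 45 counts in the pCAF libraries and 0, 0, 1 and 0 in the NMF libraries. The pCAF to NMF ratio of Cyp26a1 was 261 with an exact 95% counting interval of 45.9 to 10422 (adjusted p = 1.68e-04). Without NMF replicate 3, which held the count, it was at least 68.3, and without NMF replicate 4, the deepest library, 155 (27.2 to 6179). Cyp1b1, which can make as well as break down retinoids, was 4.27-fold higher in pCAF (150.1 ± 21.3 CPM and 34.9 ± 12.1 CPM, adjusted p = 7.95e-04), and Cyp2s1 did not pass (adjusted p = 0.230, but 0.0200 and higher in pCAF without both libraries that stand apart; 0.0200 to 0.582 over all alternatives). These 3 were the tested genes of the 6 listed with the hydroxylases and remaining dehydrogenases, 2 of them higher and none lower, too few to set beside the shares of all genes.

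The start regions of Rarb and Cyp26a1 are shown because each holds a direct repeat of the kind that RAR and RXR pairs are known to bind. RefSeq windows were searched on both strands for a direct repeat of 2 hexamers in the same orientation, each being the consensus AGGTCA, or the variant GGGTCA, or the variant AGTTCA, or the variant GGTTCA, with 1, 2 or 5 bases between them. The repeat is in capitals below. The Rarb window is chr14:16575427-16575726, minus strand, and the Cyp26a1 window is chr19:37697558-37697857, plus strand.
Rarb: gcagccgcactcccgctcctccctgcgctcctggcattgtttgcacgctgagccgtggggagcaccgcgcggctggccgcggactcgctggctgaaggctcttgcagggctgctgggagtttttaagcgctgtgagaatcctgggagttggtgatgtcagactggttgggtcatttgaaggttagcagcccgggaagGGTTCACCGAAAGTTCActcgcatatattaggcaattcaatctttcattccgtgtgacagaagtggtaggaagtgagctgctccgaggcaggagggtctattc
Cyp26a1: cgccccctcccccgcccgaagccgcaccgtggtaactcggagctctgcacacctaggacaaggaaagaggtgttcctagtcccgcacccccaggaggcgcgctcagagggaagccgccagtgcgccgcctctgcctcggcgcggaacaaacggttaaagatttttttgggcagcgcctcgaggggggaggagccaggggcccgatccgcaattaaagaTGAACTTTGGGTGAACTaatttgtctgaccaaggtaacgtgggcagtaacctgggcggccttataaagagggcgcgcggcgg
In both, the hexamers are 5 bases apart. The Rarb repeat, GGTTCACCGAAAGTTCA, lies 53 to 37 bases before the start, and the Cyp26a1 repeat, which reads on the other strand as printed (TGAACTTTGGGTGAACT), lies 32 to 16 bases before it. The 5-base spacing occurred in 32 of the 32851 windows, or 0.0974%, and any of the 3 spacings in 0.588%. Of the 9 genes, 7 had at least 1 window, 10 in all, and the Rarb window was the only one with a match. Of 87 other pathway genes, 59 had 81 windows, and Cyp26a1 and Bco1, a carotenoid cleavage enzyme with too few counts to test, had a match. Among all these genes, the 2 windows with the 5-base spacing thus belong to a gene that overlapped between the groups and to a gene with 107 counts in pCAF and 1 in NMF; a match is a description of letters, not of binding.

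**Figure D4:**
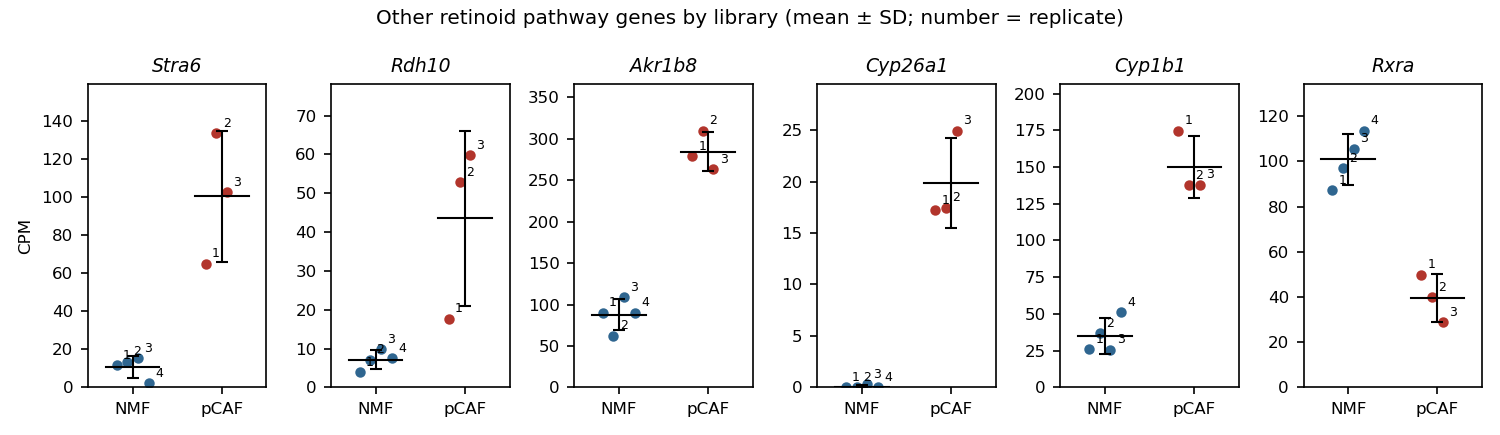
Level of 6 other retinoid pathway genes by library, in CPM on linear axes that start at 0; points are libraries with their replicate number, lines are means and bars ± SD. Stra6, Rdh10, Akr1b8, Cyp26a1 and Cyp1b1 lie higher in all 3 pCAF libraries than in all 4 NMF libraries, and Rxra lies lower.

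Of 30 genes that textbooks list as targets of retinoic acid, 21 were tested, 7 (33.3%) being higher and 5 (23.8%) lower in pCAF, beside 14.3% and 14.2% of all tested genes, with a median log2 fold change of 0.27. Stra6, Cyp26a1 and Cyp1b1, given above, were among the 7 higher. So were the homeobox genes Hoxa4 (3.49-fold) and Meis1 (2.61-fold), with adjusted p = 0.0382 and 0.0328, which lost their calls in 6 and 7 of 14 alternatives. Hoxa4 had 39.9 CPM in pCAF replicate 1 and 11.3 and 12.2 CPM in the others, and without replicate 1 its log2 fold change was 0.94 (adjusted p = 0.149, within 0.0136 to 0.149). The Hoxa4 call was also lost without NMF replicate 1, 2 or 3 (0.0859 to 0.107), and its 3′ end overlaps another annotated gene. The Meis1 call was lost without pCAF replicates 2 or 3 or NMF replicates 1, 2 or 3 (0.0667 to 0.191).

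Among the target genes that were lower in pCAF, Ripply3, a transcriptional repressor known from pharyngeal development, was 18.8-fold lower (adjusted p = 0.00132), with 0, 1.13 and 2.22 CPM in pCAF and 18.3 to 26.2 CPM in NMF. Without pCAF replicate 3 it had 2 counts in pCAF and 276 in NMF, a ratio of 37.5 (10.3 to 312). The homeobox genes Hoxb4 and Hoxb5 were 3.99-fold and 12.3-fold lower (adjusted p = 0.00819 and 0.0101), and without pCAF replicate 2 Hoxb5 had 1 count in pCAF, a ratio of 40.0 (7.08 to 1592). Tgm2, transglutaminase 2, was 1.98-fold lower (adjusted p = 0.0378; 0.0625 to 0.104 without pCAF replicates 2 or 3 or NMF replicates 1 or 2). The orphan receptor Nr2f2 was 2.93-fold lower (adjusted p = 0.0400), and its call was lost without any single library other than pCAF replicate 1 (0.0640 to 0.106). Rarres2, the gene of the adipokine chemerin, which retinoids are known to raise, had 3184 ± 269 CPM and 2403 ± 353 CPM and did not pass (adjusted p = 0.254), nor did the antiproliferative gene Btg2 (adjusted p = 0.654, but 0.00284 and lower in pCAF without both libraries that stand apart; 0.00284 to 0.903 over all alternatives).

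Of 14 listed coregulators of RAR and RXR, 12 were tested and 3 (25.0%) were lower and none higher, beside 14.2% and 14.3% of all tested genes, with a median log2 fold change of -0.54. Ncoa2 was 3.51-fold lower (adjusted p = 0.0104, 0.0533 with the replicate block) and Ncoa1 2.88-fold lower (adjusted p = 0.0203, 0.0757 with the replicate block and 0.0751 without pCAF replicate 2); both encode p160 coactivators. Zfp423, a zinc-finger factor of preadipocytes that is needed for retinoic acid responses in some cells, was 5.57-fold lower (adjusted p = 0.0287; 0.0547 to 0.0772 without pCAF replicate 2 or NMF replicate 1, 2 or 3, and 0.0673 with the block). The mediator subunit Med1 did not pass (adjusted p = 0.220).

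Over the whole pathway beyond the 9 genes, 86 of 87 listed symbols were in the table, 10 were at 0 in every library, and 56 were tested. Of these 9 (16.1%) were higher and 16 (28.6%) lower in pCAF, beside 14.3% and 14.2% of all tested genes, and 31 did not pass; the median log2 fold change was -0.37. With library totals as scaling, which moved the median of all genes from -0.02 to -0.26, the split was 6 higher and 19 lower. Without both libraries that stand apart it was 15 higher and 22 lower. The counts of Ncoa1, Cyp2s1, Tgm2 and Rarres2 are uncertain, since their 3′ ends overlap other annotated genes. Of the 9 described genes, 7 kept the sign of their fold change in all alternatives that gave a value, 14 for each gene but Crabp2, which had 13, and Aldh1a3 and Cyp26b1 did not.

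**Figure D5:**
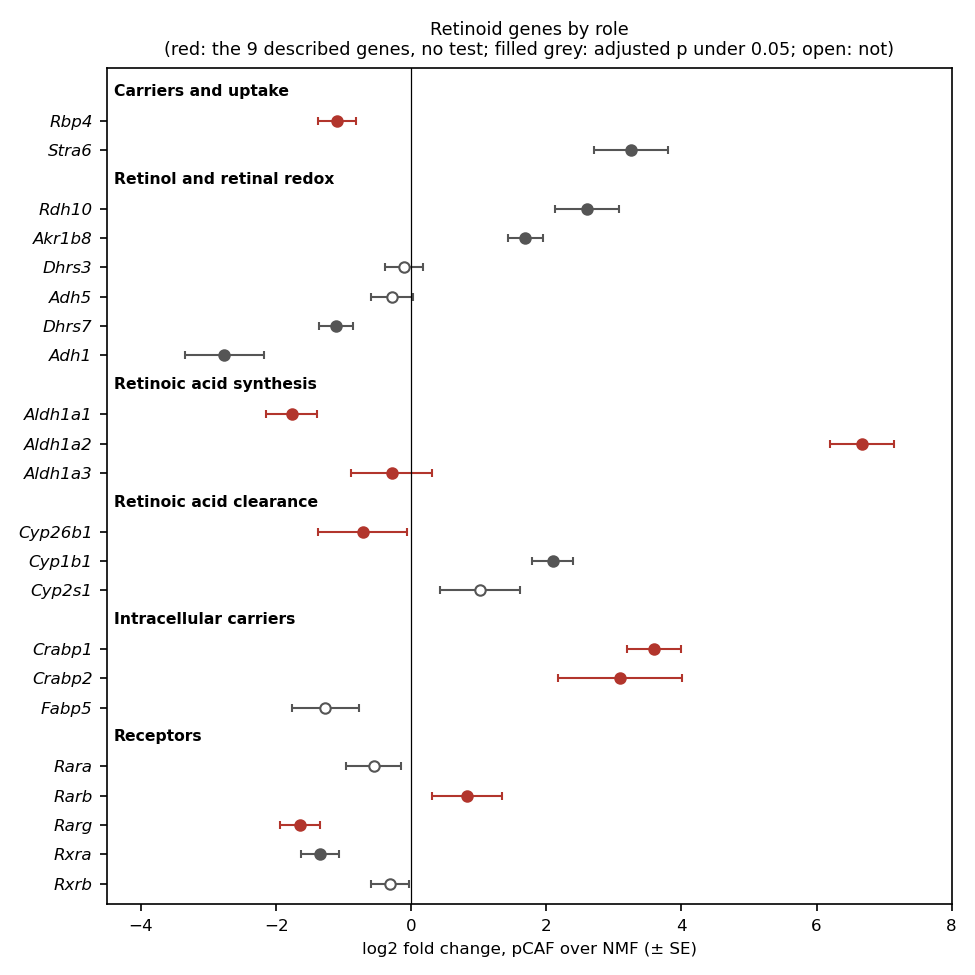
Fitted log2 fold change, pCAF over NMF, ± SE for the 9 genes (red, described without a test) and for other retinoid genes (grey; filled for an adjusted p under 0.05, open otherwise), grouped by role. Aldh1a2 at 6.68 and Crabp1 at 3.59 lie farthest to the right of the 9, and Aldh1a1 at -1.77 and Rarg at -1.64 farthest to the left.

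The genes whose profiles over the 7 libraries lay nearest to each of the 9, by the root mean square difference of centred log2 CPM among 10534 genes, are given as a description only. For Rbp4 they were Fam53c (0.089) and Pip4k2b (0.11), for Rarg 9530082P21Rik (0.15) and Naa60 (0.16), and for Aldh1a1 Dmpk (0.19) and Git2 (0.21). For Aldh1a3 they were Pdp2 (0.17) and Fhit (0.19), for Cyp26b1 E430018J23Rik (0.22) and Tomm40l (0.22), and for Rarb Rcbtb1 (0.23) and Fam161a (0.23). Crabp1 lay nearest to Ccna2 (0.40), a cyclin, and Hif1a (0.43), the hypoxia-inducible factor subunit, and Crabp2 to Hk2 (0.40), a hexokinase, and Prdx1 (0.40), a peroxiredoxin. The genes nearest to Aldh1a2, Crabp1 and Crabp2 were thus more distant from them than those nearest to the other 6. The median gene was more distant from these 3 as well, at 3.32, 1.97 and 1.78, against 0.86 to 1.30 for the other 6. The measure is not scaled to the size of a gene's own changes, so nearest distances cannot be compared between the 9. None of the 2 nearest genes of any of the 9 was a member of the retinoid lists.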

How the data were processed

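Messenger RNA was read from its 3′ ends in 3 pCAF and 4 NMF libraries, per the labels' protocols. The authors deposited raw counts per gene symbol for the series. The submitters' processing notes name bcl2fastq, STAR 2.4.2a, HTSeq and mm10 without their roles; strandedness, multi-mapping reads and molecular identifiers are not given in the sources used here. Groups were taken from titles.

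The fit used edgeR 4.0.16 in R 4.3.3: filterByExpr kept 10535 genes, TMM scaled the libraries, and the robust quasi-likelihood F test, two-sided, was adjusted by Benjamini-Hochberg over all of them with a threshold of 0.05. CPM values were computed from TMM effective library sizes. The SE is the absolute log2 fold change over the square root of F. With no count in a group, folds are bounds against 3 counts over the group; with 1 to 3, exact 95% counting intervals are given. The method was tested on simulated data. Positions and overlaps of the last 1000.0 bp are from GENCODE M21, copies of the last 300.0 bp from blastn 2.17.0 (at least 80 bp at 95% identity), and promoters from RefSeq. Profiles used a prior count of 2. Python 3.11.15, pandas 2.3.3, SciPy 1.17.1 and matplotlib 3.10.9 were used.

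The 9 genes, the lists and the rules were chosen with earlier results of these data known. Besides the 9, the rule named up to 4 passing genes of each list by adjusted p, up to 2 others by mean CPM, and 2 nearest genes. Stra6, Scarb1, Rdh5, Rara, Tgm2, Hoxa4, Hoxb4, Hoxb5, Meis1, Nr2f2, Bco1 and the mesothelial markers were named outside it, after their values were seen. A few list members are not reported here by name; the fits and list counts include them. Alternatives were DESeq2 1.42.0 size factors and test, library totals, no filter, a mean of at least 10 CPM, the replicate block and each library left out. The fit without pCAF replicate 1 and NMF replicate 4 was chosen after seeing the data.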

Additional observations from a re-analysis of the deposited data

Results flagged for a closer look

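In NMF, 3 of the 43 retinoid genes checked had a single library far from the other 3 by Dixon's gap test, which chance passes in about 1 of 20 groups. Cyp26a1, the retinoic acid hydroxylase, stood at 0.352 CPM in NMF replicate 3, which is 1 count, and at 0 in the other NMF libraries; with the others at 0 any single count passes this check, so it says nothing of that library. Cyp2s1, a further hydroxylase, stood at 5.79 CPM in NMF replicate 4 against a group median of 2.58 CPM. Ncoa1, the coactivator, stood at 68.5 CPM in NMF replicate 4 against a group median of 31.1 CPM, and without that library its log2 fold change was -1.10 in place of -1.52. None of the 9 described genes had such a library in NMF. The check was not made for the 3 pCAF libraries, so it says nothing of them.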

How the results depend on the processing

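Of the 9 genes, 7 kept the direction of their fold change in all alternatives that gave a value; Crabp2 had none under a mean of at least 10 CPM. Only NMF has a replicate 4, so in the fit with the replicate block that library adds nothing to the group difference. The log2 fold change of Aldh1a2 was 7.42 with the replicate block, 7.46 without NMF replicate 4, and 6.41 to 7.46 with single libraries left out. That of Aldh1a3 was -1.65 to 0.16 with single libraries left out and -1.42 without both pCAF replicate 1 and NMF replicate 4. That of Cyp26b1 was -1.18 to -0.22 with single libraries left out. Without both, Cyp26b1 reached 0.29, Dhrs3 0.04, Adh5 0.10, and the number of other pathway genes higher in pCAF was 15. With single libraries left out that number was 6 to 10 and the number lower 12 to 20, and Dhrs3 ran from -0.21 to 0.071 and Adh5 from -0.50 to 0.0036. Of the 23 other called genes reported by name, 15 stayed called in every alternative that gave a value. Over all genes, 2994 calls became 2001 with the block (978 higher, 1023 lower), 5715 without both libraries and 1995 without NMF replicate 1. Replicate numbers did not pair the groups (correlations of same-numbered deviations -0.0932, 0.0794 and -0.0132); the block left 6 genes higher and 11 lower. The cause of these changes was not tested. Depths of 1885039 to 4990070 counts limit Crabp2 and Aldh1a2 in NMF, where they rest on few counts.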
